A study of Mus musculus with 2 samples.

Results

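Rab GTPases are the small GTP-binding proteins that give the membranes of the secretory and endocytic pathways their identity. The members described here are all genes whose symbol in the array's platform annotation is Rab followed by 1 or 2 digits and then nothing, a letter, or a letter and a digit, so that effectors such as the Rab11-interacting proteins are not included. The rule used names only and no measured value. It found 58 Rab genes on 66 probe sets, of 22180 named genes and 41345 probe sets in all. The RNA came from dendritic cells derived from mouse bone marrow (GMDC in the submitters' titles), with 1 array for each culture condition. The control culture is labelled only as control. The other culture was given medium taken from E0771 cells, a murine breast cancer line, after these had been exposed to the topoisomerase I inhibitor topotecan. The labels give no dose, duration, mouse strain or age and no composition of the control medium, and therefore topotecan treatment of the tumour cells and tumour-conditioned medium as such cannot be told apart.

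A Rab protein cycles between a GDP-bound form, held in the cytosol by a dissociation inhibitor, and a GTP-bound form on a membrane, where it recruits effectors such as tethers, motors and coat adaptors. Exchange factors load GTP, GTPase-activating proteins end the cycle, and a prenyl group on the C-terminus anchors the protein. In dendritic cells Rab proteins carry antigen from endosomes to lysosomes, return MHC and receptors to the surface, and move newly made cytokines and surface proteins from the Golgi outwards.

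Values are log2 intensities as deposited. A gene was represented by its probe set with the highest mean over both arrays, and was kept when the higher of its 2 values reached 4.10, the median of all values, since lower values may be background. The log2 difference is the conditioned-medium value minus the control value, and a difference of at least 2-fold is called higher or lower. Beside a smaller fold, higher or lower gives only the sign of the difference. With 1 array per condition there is no replicate error and no test, so a 2-fold call is a size on these 2 arrays. The error that the file does show is the spread between probe sets of the same gene, whose log2 differences had a pooled SD of 0.46 over 652 genes with 2 or more kept probe sets. That spread leaves out the variation between cultures.

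The dendritic cell markers were mixed. Of 8 measured, 7 were kept, of which 2 were past 2-fold upward and 3 downward. Kept markers included Itgax (CD11c, 8.18 on the control array and 7.15 on the other), H2-Ab1 (10.16 and 11.30) and Irf8 (10.42 and 9.54). Batf3 was 4.08-fold lower (7.30 and 5.27), Irf4 3.55-fold higher (4.48 and 6.30) and Flt3 2.35-fold lower (4.38 and 3.15, a log2 difference of -0.28 with the second value raised to 4.10). Zbtb46, a transcription factor that marks conventional dendritic cells, lay under 4.10 on both arrays. Of the neutrophil markers, 10 of 12 were lower by 2-fold or more, as were 8 of 9 proliferation genes and 6.84% of all kept genes. On the log2 scale the summed intensity of the neutrophil list was 13.48 and 11.66, and that of the proliferation list 12.17 and 10.26. Of 7 macrophage markers 3 were lower by 2-fold or more (Chil3, Csf1r and Adgre1). The median level of the 7 was 9.69 and 7.57, and the summed intensity of all 7 was 12.89 and 12.97, with Fcgr1 (11.45 and 12.44) the largest term of the sum on both arrays. Of these markers, none was listed at 0. In RNA from whole cultures, fewer cells of a type and less RNA per cell cannot be told apart, and the part of such cells in the Rab values was not tested.

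Of the 58 Rab genes, 48 were kept. Of these, 4 were higher by 2-fold or more in the culture with conditioned medium (8.33%, against 8.63% of the 13712 kept genes), 2 were lower by as much (4.17%, against 6.84%) and 42 lay between. The shares past 2-fold were thus near those of all kept genes. The 4 higher members were Rab19, Rab20, Rab22a and Rab3d, and the 2 lower members were Rab4a and Rab44. The median log2 difference of the kept Rab genes was 0.09 (quartiles -0.18 and 0.45), beside -0.07 for all kept genes, and 30 of the 48 (62.5%) lay above 0, where 44.2% of all kept genes did. At the lower threshold of 1.5-fold, 11 Rab genes were higher (22.9%, against 16.6% of kept genes) and 5 were lower (10.4%, against 17.9%). At 3-fold, 1 Rab gene was higher (2.08%, against 4.14%) and 0 were lower (against 2.11%). These shares describe the 2 arrays and carry no error of their own.

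**Figure D1:**
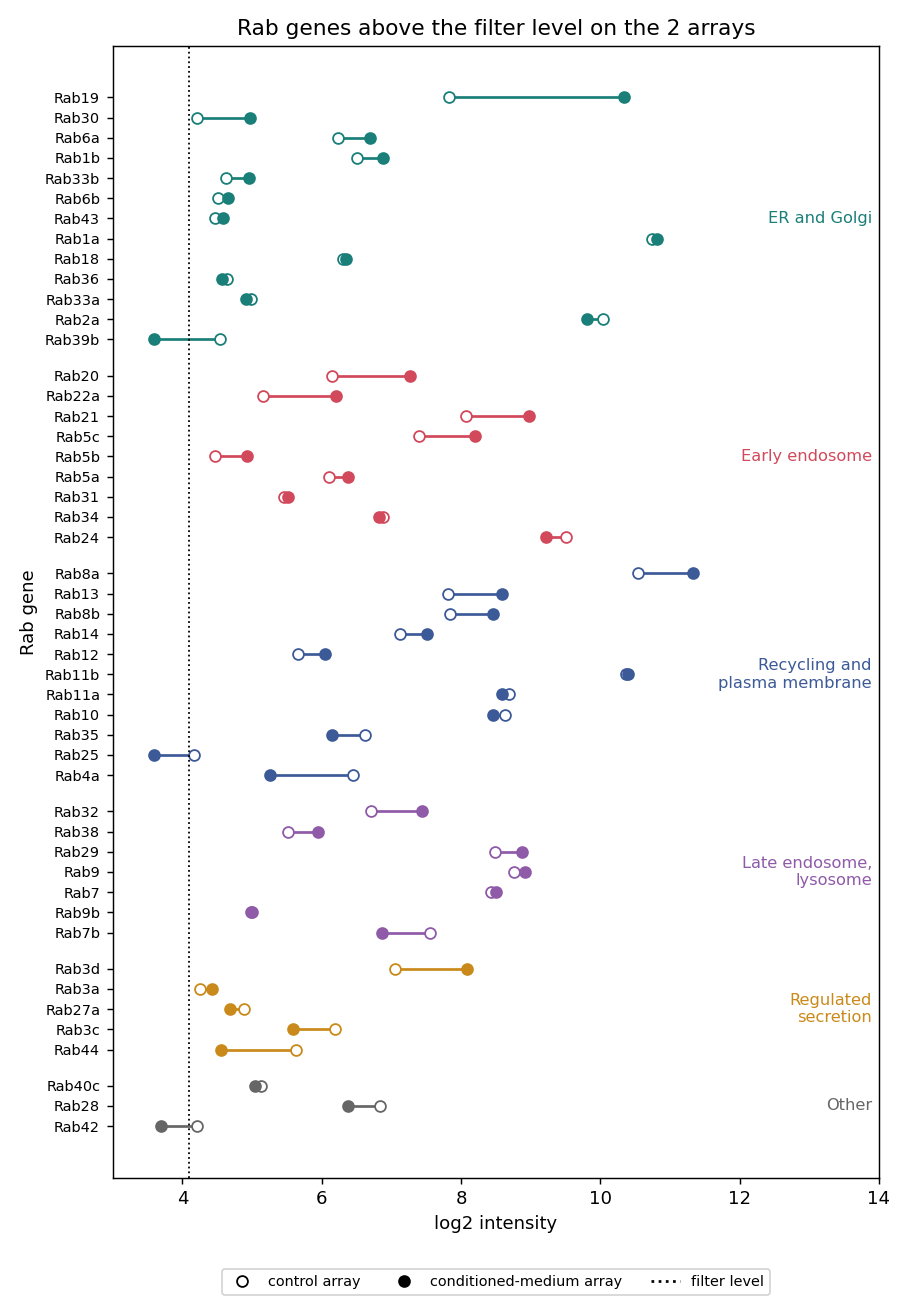
The log2 intensity (horizontal axis) of each of the 48 kept Rab genes (vertical axis) is drawn as an open circle for the control array and a filled circle for the conditioned-medium array, 1 array each, grouped by role; the dotted line is the filter level of 4.10. Rab19 has the longest line, from 7.83 to 10.35, and most members move by less than 1 unit.

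The promoters of the 4 higher members are printed because these members carry the upward end of the family. Each is the 250 bases before the annotated start of the gene in RefSeq, written 5′ to 3′ along the gene. Capitals mark matches, on either strand, to 4 motifs that were chosen with the interferon and inflammatory genes of these arrays already known. They included the interferon-stimulated response element (ISRE: GAAA, any 2 bases, GAAA) and an NF-kB motif (GGG, any 2 bases, TTTCC). The others were an AP-1 motif (TGANTCA) and the CACGTG form of the E-box, and other forms of the E-box were not searched. The table of promoters held 47 of the 58 Rab genes, and Rab4a and Rab44 were not among them.
Rab19 promoter, GRCm38.p6, chr6:39381103-39381352, plus strand: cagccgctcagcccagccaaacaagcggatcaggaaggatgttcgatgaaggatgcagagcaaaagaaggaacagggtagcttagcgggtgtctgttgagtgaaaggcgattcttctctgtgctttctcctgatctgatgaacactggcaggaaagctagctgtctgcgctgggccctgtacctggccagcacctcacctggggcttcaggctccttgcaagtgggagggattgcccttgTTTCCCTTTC
Rab20 promoter, GRCm38.p6, chr8:11478641-11478890, minus strand: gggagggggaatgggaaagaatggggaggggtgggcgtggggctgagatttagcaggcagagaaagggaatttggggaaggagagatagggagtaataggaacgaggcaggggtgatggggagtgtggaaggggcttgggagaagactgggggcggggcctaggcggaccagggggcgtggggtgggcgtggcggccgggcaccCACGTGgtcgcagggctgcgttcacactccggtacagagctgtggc
Rab22a promoter, GRCm38.p6, chr2:173659595-173659844, plus strand: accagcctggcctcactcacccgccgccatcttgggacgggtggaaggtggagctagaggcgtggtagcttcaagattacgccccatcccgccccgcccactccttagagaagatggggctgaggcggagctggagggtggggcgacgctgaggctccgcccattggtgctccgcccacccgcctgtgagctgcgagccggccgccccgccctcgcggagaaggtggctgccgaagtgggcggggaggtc
Rab3d promoter, GRCm38.p6, chr9:21918184-21918433, minus strand: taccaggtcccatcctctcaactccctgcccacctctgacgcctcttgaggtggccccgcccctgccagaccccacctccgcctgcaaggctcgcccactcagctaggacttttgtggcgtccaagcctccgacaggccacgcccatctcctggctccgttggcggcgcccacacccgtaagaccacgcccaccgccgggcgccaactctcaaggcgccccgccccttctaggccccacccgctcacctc

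The Rab19 promoter held 1 ISRE match, read as TTTCCCTTTC on the gene's strand, in the last 10 bases before the annotated start. An ISRE match was present in 2.98% of all 32851 promoter windows of this length and in 1 of the 47 Rab genes, which was Rab19. The Rab20 promoter held 1 E-box of the CACGTG form, from 46 to 41 bases before the start. This form was present in 6.02% of all windows and in 5 Rab genes (Rab5a, Rab20, Rab21, Rab23 and Rab27a). The NF-kB motif was found in 1.41% of all windows and in 3 Rab genes (Rab9, Rab15 and Rab28), and the AP-1 motif in 6.75% and in 2 Rab genes (Rab15 and Rab34). The windows of Rab22a and Rab3d held none of the 4 motifs. A match describes letters in this window and not the binding of a factor.

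Rab19, a Golgi-associated Rab, differed more than any other kept member. Its log2 intensity went from 7.83 in the control to 10.35 with conditioned medium, which is a log2 difference of 2.52 or 5.73-fold. Both values lay well above the filter level, and the difference exceeded 5 times the 0.46 pooled SD between probe sets of a gene. That SD leaves out the variation between cultures, so the multiple does not say whether the difference would recur. It ranked 222 of 13712 kept genes from the highest, and 1.62% of kept genes differed upward by as much. Rab19 had 1 probe set, so no second measurement of it was available.

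Of the 15 Rab genes of the endoplasmic reticulum and Golgi, 13 were kept. With Rab19 counted, 1 of these was past 2-fold upward (7.69%, against 8.63% of all kept genes) and none downward (against 6.84%), 9 lay above 0, and the list had a median log2 difference of 0.12. Rab1a and Rab1b, which act in transport from the endoplasmic reticulum to the Golgi, had log2 differences of 0.07 (10.75 and 10.82) and 0.37 (6.51 and 6.88). Rab2a, of the same early secretory step, read 10.03 and 9.81. Rab6a, which acts in transport within and back from the Golgi, read 6.23 and 6.69, and its relative Rab6b read 4.51 and 4.65, with a second probe set that went the other way (4.41 and 3.98). The differences of these 5 genes stayed within 1.5-fold.

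Rab30, another Golgi Rab, was 1.69-fold higher (4.21 and 4.97), although its control value lay just above the filter level. Rab39b was the lowest of this role, at 4.54 on the control array and 3.59 on the other. The second value lay under the filter level, and with values under 4.10 raised to it the log2 difference went from -0.95 to -0.44. Rab18, linked to lipid droplets, differed by 0.05, and Rab43, Rab33a, Rab33b and Rab36 lay between -0.08 and 0.32. Rab2b and Rab39 stayed under the filter level on both arrays.

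Among the Rab genes of early endosomes and uptake, 9 of 10 were kept and 7 of these lay above 0 (77.8%, against 44.2% of all kept genes). Of the 9, 2 were past 2-fold upward (22.2%, against 8.63%) and none downward (against 6.84%), and the median log2 difference was 0.46. The 3 Rab5 genes encode the organisers of early endosome fusion. Rab5c read 7.40 in the control and 8.20 with conditioned medium, 1.74-fold higher. Rab5b read 4.47 and 4.93 (1.37-fold), and Rab5a read 6.11 and 6.38 (1.21-fold). All 3 read above their control values, and each stayed short of 2-fold. The differences of Rab5a and Rab5b lay within the 0.46 pooled SD between probe sets of a gene.

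Rab20, which is found on endosomes and phagosomes of macrophages, read 6.15 and 7.27, 2.17-fold higher. Its second probe set read 4.69 and 5.33, a log2 difference of 0.64 beside 1.12, so both were higher and 1 of them passed 2-fold. Rab22a, which acts in sorting from early endosomes, was 2.06-fold higher (5.16 and 6.20), and Rab21, an early endosomal Rab that binds integrins, was 1.87-fold higher (8.07 and 8.97). Rab22a and Rab3d, with log2 differences of 1.04 and 1.03, lay just past the 2-fold mark of 1, and Rab21, at 0.90, just short of it. These 3 are separated by less than the spread between probe sets.

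The remaining members of this role differed little. Rab31, a relative of Rab22a and Rab5, read 5.46 and 5.52, and Rab34, linked to macropinosomes, read 6.88 and 6.82. Rab24, linked to autophagosomes, read 9.51 and 9.22. Rab17 stayed under the filter level (4.09 and 3.90).

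The Rab genes of recycling endosomes and of delivery to the plasma membrane moved both ways. Of 12 measured, 11 were kept, with none past 2-fold upward (against 8.63% of all kept genes), 1 downward (9.09%, against 6.84%) and a median log2 difference of 0.03. Rab4a, which acts in rapid recycling from early endosomes, was the lowest of all kept Rab genes. It read 6.45 in the control and 5.26 with conditioned medium, 2.29-fold lower, and 4.48% of kept genes differed downward by as much. It had 1 probe set. The probe sets of its relative Rab4b carried other gene symbols too and are not counted among the members.

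Rab8a and Rab8b, which direct vesicles to the plasma membrane, were both higher with conditioned medium. Rab8a read 10.54 and 11.34 (1.74-fold) and Rab8b 7.84 and 8.46 (1.53-fold). Rab13, a close relative of Rab8 that acts at cell junctions, read 7.81 and 8.59 (1.72-fold). Rab10, of the same subfamily, went the other way by a small step (8.63 and 8.46). Rab12 and Rab14, both linked to endosomes, were each 1.31-fold higher, which lay within the 0.46 pooled SD between probe sets of a gene.

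The Rab11 genes define the slow recycling endosome. Rab11a read 8.68 and 8.59. Rab11b had 3 probe sets, with log2 differences of 0.03 (10.37 and 10.40), -0.53 (6.65 and 6.12) and 0.60 (7.10 and 7.70), so no direction can be read for it. Rab35, an endosomal recycling Rab, was 1.38-fold lower (6.62 and 6.15).

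Rab25, the epithelial relative of Rab11, read 4.16 and 3.59, just above and then under the filter level. With the floor at 4.10 its log2 difference was -0.06. Of the 10 epithelial markers measured, 5 were kept. Of these, 2 were at least 2-fold higher (40%, against 8.63% of all kept genes), Cdh1 (6.42 and 10.21) and Krt19 (4.44 and 6.59), and none was lower by as much. The summed intensity of the list, to which Cdh1 contributed most on both arrays, was 7.89 and 10.47 on the log2 scale. The median level of the 10 was 4.26 and 4.19, and Krt8, Krt18, Cldn4 and Cldn7 read lower with conditioned medium. Of the markers that read lower, only Krt8 was kept (4.96 and 4.77). Krt18, Cldn4 and Cldn7 lay under the filter level on both arrays, as did Epcam and Esrp1, so no direction can be read for them. Rab15 was listed at the same value on both arrays, 3.22, under the filter level.

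**Figure D2:**
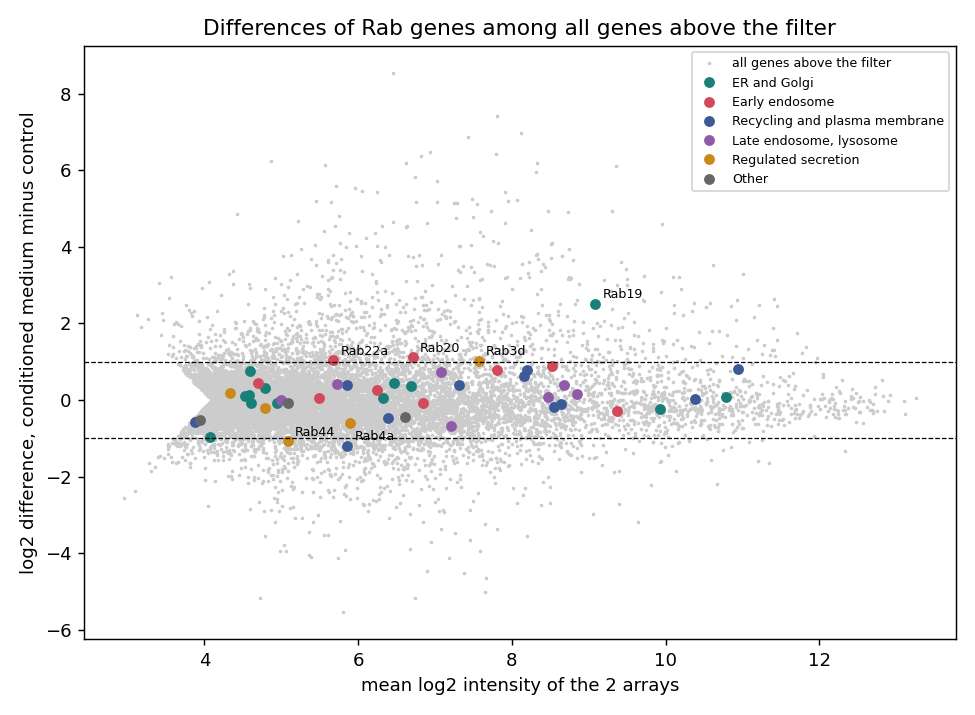
The log2 difference (vertical axis, conditioned medium minus control) is plotted against the mean log2 intensity of the 2 arrays (horizontal axis) for all 13712 kept genes in grey and the 48 kept Rab genes coloured by role; dashed lines mark 2-fold. Rab19 stands at 2.52 and the other Rab genes lie between -1.19 and 1.12, all inside the range of the grey points (-5.54 to 8.54).

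All 7 Rab genes of late endosomes, lysosomes and lysosome-related organelles were kept, 6 of them lay above 0 (85.7%, against 44.2% of all kept genes), and none passed 2-fold in either direction (against 15.5%). Of the 6 above 0, only Rab32 differed by more than the 0.46 pooled SD between probe sets of a gene, so the share counts signs alone. Rab7, which governs fusion of late endosomes with lysosomes, read 8.43 in the control and 8.50 with conditioned medium. Rab9, which acts in transport from late endosomes to the Golgi, read 8.76 and 8.92, and Rab9b differed by 0.01 on the log2 scale. The core late endosomal Rabs thus lay within 1.12-fold.

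Rab32 and Rab38, a closely related pair known from melanosomes and other lysosome-related organelles, were 1.67-fold (6.71 and 7.44) and 1.35-fold (5.51 and 5.94) higher. Rab29, the third of that subfamily, was 1.32-fold higher (8.48 and 8.88). Rab7b, which is expressed in myeloid cells and acts between endosomes and the Golgi, was the lowest of this role: it read 7.55 and 6.87, 1.61-fold lower. Rab7 and Rab7b thus had log2 differences of 0.07 and -0.69. The differences of Rab7, Rab29 (0.40) and Rab38 (0.43) lay within the 0.46 pooled SD between probe sets of a gene, so no direction can be read for them. That SD leaves out the variation between cultures.

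Of the 9 Rab genes of regulated secretion, 5 were kept, with 1 past 2-fold in each direction (beside 8.63% upward and 6.84% downward of all kept genes). Rab3d, found on secretory granules, read 7.06 and 8.08, 2.04-fold higher. Its second probe set was low (3.97 and 4.40), with a log2 difference of 0.43. Rab3c was 1.52-fold lower (6.20 and 5.59), with a second probe set under the filter level that differed by 0.14. Rab3a read 4.25 and 4.43.

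Rab44, a large atypical Rab linked to granule release in mast cells, read 5.63 in the control and 4.55 with conditioned medium, 2.12-fold lower, and had 1 probe set. The neutrophil markers had a median level of 8.50 on the control array and 5.10 on the other. Of 6 kept mast cell and basophil markers 2 were at least 2-fold lower (33.3%, against 6.84% of all kept genes), Cpa3 (6.52 and 3.72) and Fcer1a (4.39 and 3.09). Another, Hdc (3.12 and 6.06), was at least 2-fold higher (16.7%, against 8.63%). With the floor at 4.10 Fcer1a differed by -0.29, and Cpa3 and Hdc by -2.42 and 1.96. The summed intensity of the mast cell and basophil list was 9.02 and 8.55 on the log2 scale, with Mcpt8 (8.37 and 7.85) the largest term on both arrays. The part of these cells in the Rab44 value was not tested.

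Rab27a, which docks lysosome-related organelles and exosome-bearing endosomes at the plasma membrane, read 4.89 and 4.69. Its relative Rab27b was listed at exactly 3.51 on both arrays; 4.16% of all probe sets likewise held the same value on both. Rab3b, Rab26 and Rab37 also stayed under the filter level on both arrays, at values from 3.01 to 4.07.

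Of the 5 other Rab genes, 3 were kept and all 3 lay below 0, as did 54% of all kept genes: Rab28 (6.83 and 6.38), Rab42 (4.20 and 3.69) and Rab40c (5.13 and 5.05). Rab42 was kept through its control value alone, and with the floor at 4.10 its log2 difference was -0.11. Rab28 is linked to cilia and Rab40c to a ubiquitin ligase. Rab23, a regulator of Hedgehog signalling, and Rab40b stayed under the filter level.

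Of the 7 Rab genes with more than 1 probe set, Rab20, Rab3d and Rab8a had all their probe sets higher with conditioned medium. The second probe set of Rab8a, at 7.37 and 8.67, was past 2-fold where the representative was not. In Rab39b both probe sets were lower, by 0.95 and 0.15, but the second lay under the filter level on both arrays (3.56 and 3.41). The representative also read under that level with conditioned medium (3.59). Rab11b, Rab6b and Rab3c had probe sets on both sides of 0. Rab genes resemble each other in sequence, and signal shared between the probe sets of close relatives was not tested.

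**Figure D3:**
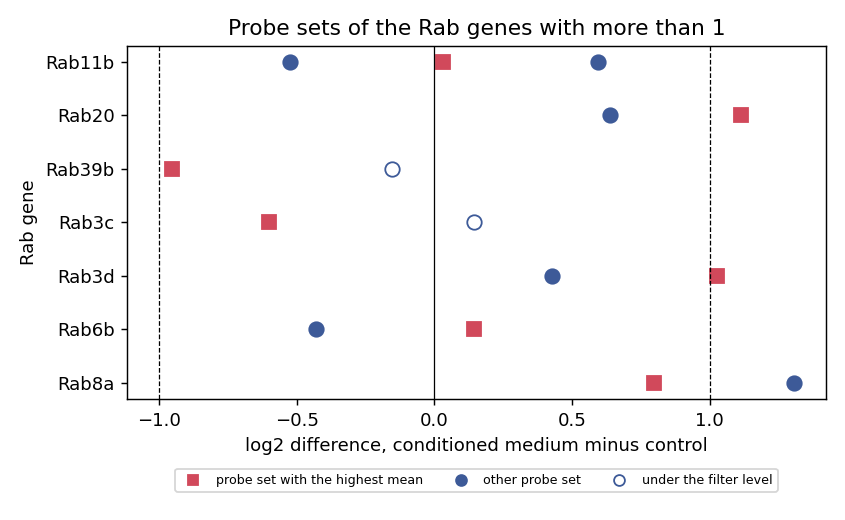
The log2 difference (horizontal axis, conditioned medium minus control) of every probe set of the 7 Rab genes with more than 1 (vertical axis) is shown, with squares for the probe set that represents the gene, circles for the others and open symbols for those under the filter level; dashed lines mark 2-fold. Rab20, Rab3d and Rab8a lie wholly to the right of 0, and Rab11b spreads from -0.53 to 0.60.

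The genes that handle Rab proteins were set beside them, from lists written for this purpose. Of 7 delivery and prenylation genes measured, 6 were kept and all 6 were below 0 (54% of all kept genes were). Of these, 1 was past 2-fold downward (16.7%, against 6.84%), and the median log2 difference was -0.55. The differences of Rabggta, Rabac1 and Chml lay within the 0.46 pooled SD between probe sets of a gene. Gdi2, a GDP dissociation inhibitor that extracts Rab proteins from membranes, read 10.69 in the control and 9.48 with conditioned medium, 2.31-fold lower. Rabif read 6.61 and 5.71, and Chm, the escort protein that presents Rabs for prenylation, read 4.55 and 3.92. The prenyltransferase subunit Rabggta read 6.22 and 5.76, and the other subunit, Rabggtb, lay under the filter level. Rabac1, a prenylated Rab acceptor, read 10.83 and 10.58, and Chml, the second escort protein, read 5.19 and 5.02.

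Exchange factors went both ways. Of 29 kept, 5 were past 2-fold upward (17.2%, against 8.63% of all kept genes) and 2 downward (6.90%, against 6.84%), and the median log2 difference was -0.04. Dennd6b, which belongs to the DENN domain exchange factors, was 4.73-fold higher (4.59 and 6.83). The pair Rab3ip (Rabin8) and Rab3il1 (GRAB), both exchange factors for Rab8, stood at opposite ends of the list. Rab3ip was 2.74-fold higher (6.12 and 7.57) and Rab3il1 was 5.76-fold lower (6.93 and 4.41). Ric1 (4.98 and 6.03) and its partner Rgp1 (5.19 and 4.17), which form the exchange factor for Rab6, also went opposite ways, 2.07-fold higher and 2.02-fold lower.

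Rin2, an exchange factor for Rab5, was 2.05-fold higher (4.54 and 5.58), and Rabgef1 (Rabex-5), another for Rab5, was 1.60-fold higher (6.23 and 6.91). Rin1 (5.13 and 4.92) and Rin3 (5.15 and 4.59), of the same family as Rin2, were lower by less than 1.5-fold. Dennd1b, the fifth gene past 2-fold upward, had a control value under the filter level (3.35 and 4.35), and against that level its log2 difference was 0.25. The third lowest member was Dennd1a (4.38 and 3.64), a Rab35 exchange factor.

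Of the GTPase-activating proteins, 30 of 36 were kept, none was past 2-fold upward (against 8.63% of all kept genes), 4 were past it downward (13.3%, against 6.84%), and the median log2 difference was -0.17. The lowest 3 were Tbc1d22a (6.27 and 4.77, 2.83-fold lower), Tbc1d17 (6.51 and 5.05, 2.75-fold lower) and Tbc1d10c (5.84 and 4.74, 2.14-fold lower). The fourth was Tbc1d7 (6.77 and 5.74), which is also a subunit of the TSC complex. The highest 3 were Usp6nl (3.78 and 4.61), Tbc1d9 (3.78 and 4.51) and Tbc1d13 (3.99 and 4.70), each with a control value under the filter level.

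Of 32 kept effectors, 2 were past 2-fold upward (6.25%, against 8.63% of all kept genes) and 1 downward (3.12%, against 6.84%), with a median log2 difference of -0.06. Rilpl1, which binds the phosphorylated forms of Rab8 and Rab10, read 8.51 with conditioned medium, 3.51 above its control value on the log2 scale or 11.4-fold higher, more than any kept Rab gene. Its paralog Rilpl2 read 7.24 and 6.86. Lrrk2, the kinase that phosphorylates Rab8 and Rab10, read 4.76 and 5.26.

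Plekhf2, an endosomal phosphoinositide-binding protein, was 2.20-fold higher (6.27 and 7.41), and Sytl1, a synaptotagmin-like effector of Rab27, was 1.86-fold higher (4.02 and 4.92), from a control value under the filter level. The lowest 3 effectors were Vps41, a subunit of the HOPS tether that acts with Rab7 (7.64 and 6.47, 2.26-fold lower), Appl1, a Rab5 effector on signalling endosomes (7.19 and 6.29, 1.87-fold lower), and Mical1, an oxidase that disassembles actin filaments (5.91 and 5.24, 1.59-fold lower). Other effectors of Rab5 had differences of both signs. Eea1, the tether of Rab5 endosomes, read 6.62 and 6.11. Rabep1 (rabaptin-5) differed by -0.16, and Rabep2, Rbsn and Ankfy1 differed by 0.38, 0.10 and 0.04 on the log2 scale. The differences of Rabep1, Rabep2, Rbsn and Ankfy1 lay within the 0.46 pooled SD between probe sets of a gene.

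**Figure D4:**
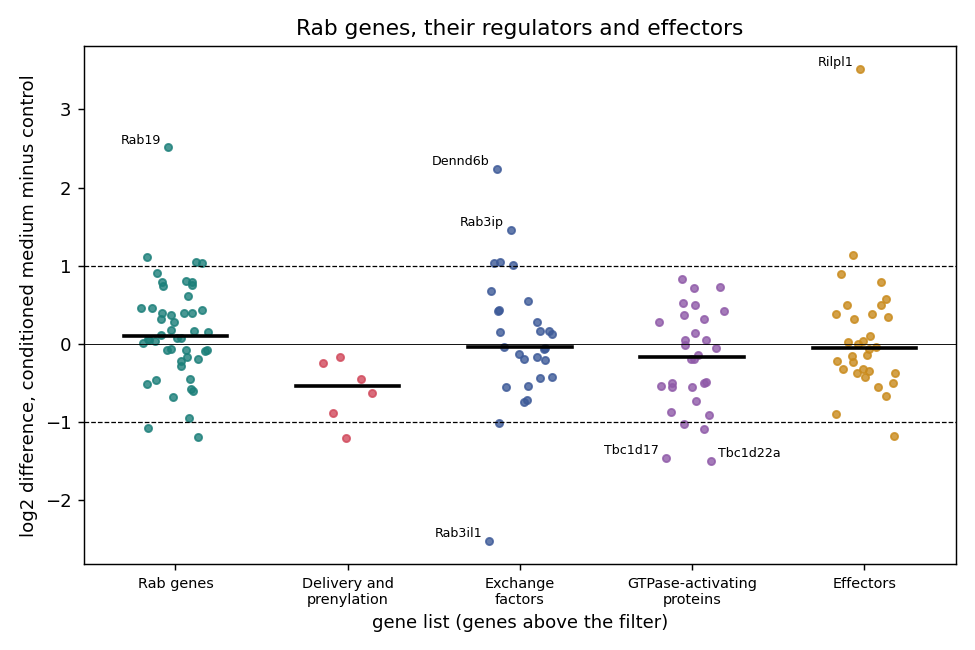
Each point is the log2 difference (vertical axis, conditioned medium minus control) of 1 kept gene in the Rab genes and in the 4 lists of genes that handle or bind Rab proteins (horizontal axis), with 1 array per condition; black bars are medians and dashed lines mark 2-fold. The 6 delivery and prenylation genes all lie below 0, and Rilpl1 and Rab3il1 are the extremes at 3.51 and -2.53.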

How the data were processed

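Total RNA was extracted with Trizol and labelled with biotin by the Affymetrix procedure, per the labels' protocols. The authors deposited 1 log2 intensity per probe set and array, made with Affymetrix Expression Console per the submitters' processing notes. The version, algorithm, background correction and build were not given in the sources used here. Base 2 is inferred from the range (-0.26 to 13.50, medians 4.10 and 4.09). Distributions are nearly the same on both arrays, so a shift of most genes one way would not be seen.

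Symbols came from the platform annotation: 23521 probe sets had 1 symbol, 1814 had several (3 with a Rab, not used as members) and 16010 were not in it. All 58 Rab gene identifiers carry the same symbol in RefSeq (GRCm38.p6), the source of the promoters. All genes were processed together and only Rab rows and lists reported.

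Both arrays' values are given for members at least 2-fold apart, for the extremes of each role and, beyond that rule, for most other members. Of each regulator list the 3 highest and 3 lowest kept genes are named, and further ones were chosen after their values were seen. Members, lists and motifs were chosen with earlier results of these data known. No test was run, as each condition had 1 array, which limits the precision. Alternatives were 3 scalings, the mean of all probe sets, 3 filters, a floor at 4.10 and thresholds of 1.5-fold and 3-fold. Counting was tested on simulated data. The planned comparison of Rab protein sequences was not made. Python 3.11.15, numpy 2.4.6, pandas 2.3.3, statsmodels 0.14.6 and matplotlib 3.10.9 were used.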

Additional observations from a re-analysis of the deposited data

Results flagged for a closer look

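The second probe set of Rab8a (17502390) drew attention because it represents no gene in the comparisons above and yet lay past 2-fold. It read 7.37 on the control array and 8.67 on the other, a log2 difference of 1.31, beside 0.80 for the probe set that represents Rab8a. Over the mean of both, Rab8a had a log2 difference of 1.05.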

How the results depend on the processing

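With quantile normalization, centring on kept genes, a floor at 4.10, filtering by the mean, filtering at the 75th percentile and no filter at all, the same 4 Rab genes were at least 2-fold higher and the same 2 lower. These genes read above 4.10 on both arrays, so the floor, the filter by the mean and the lack of a filter could not have removed any of them. A filter leaves the differences of the genes it keeps unchanged. The loess correction added Rab21 to the higher members (5), and moved the median of all kept genes from -0.07 to -0.01. With the mean of all probe sets 3 were higher, Rab19, Rab22a and Rab8a, without Rab20 and Rab3d, and the 2 lower members were again Rab4a and Rab44. At 1.5-fold 11 were higher and 5 lower, and at 3-fold 1 was higher, Rab19, and 0 lower, by construction of the threshold. The median of the Rab genes ran from 0.07 to 0.22 over the alternatives, and was 0.22 with the filter at the 75th percentile, which kept 34 Rab genes. With the floor the differences of Rab25 and Rab39b became -0.06 and -0.44, and those of the other 46 kept members moved by less than 0.46. No paired analysis was possible because each condition had 1 array, and no array could be left out for the same reason.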

Other observations

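The probe set shared by Rab4b and Mia, which cannot be assigned to either gene, read 5.63 in the control and 5.87 with conditioned medium, while Rab4a read 6.45 and 5.26.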
